A study of Mus musculus with 6 samples.

Results

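The genes of hepatic iron handling described here, 10 in all, were followed across the livers of mice fed a regular diet (RD) or a high cholesterol diet (HCD): Hamp, Bmp6, Hfe, Tfr2, Trf, Tfrc, Slc39a14, Slc40a1, Fth1 and Ftl1. Membership followed the gene symbol and used no measured value as a criterion, although the set was proposed with earlier results of these data known. All 10 were found among the 20673 genes of the deposited tables, and all 10 passed the filter on low counts, as did 13105 genes in all. The study used C57BL/6J mice of both sexes at about 3 months of age and asked how dietary cholesterol changes the liver and the outcome of sepsis. The RNA sequencing series held 3 livers of mice on RD and 3 livers of mice given HCD for 3 days, with 1 library per liver. HCD contained cocoa butter, cholesterol and sodium cholate, so the effects of these components cannot be told apart. No gene was deleted in either group, and the sex of each mouse was not given by the labels.

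Hepcidin, the product of Hamp, is a peptide hormone that hepatocytes release into the blood. It binds ferroportin, the only known cellular iron exporter, encoded by Slc40a1, and causes its degradation, so that more hepcidin means less iron leaving macrophages, enterocytes and hepatocytes. Hepatocytes transcribe Hamp in response to bone morphogenetic proteins through SMAD factors and to interleukin-6 through STAT3. Within cells, iron regulatory proteins bind a stem-loop called the iron responsive element (IRE). An IRE in a 5′ UTR lets these proteins block translation when iron is low, while IREs in the 3′ UTR of Tfrc protect that transcript from decay.

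The IREs of 4 members are shown because they divide the genes by the way iron acts on their transcripts. They were found in GENCODE M21 transcripts on the mouse build GRCm38 by searching the transcribed strand for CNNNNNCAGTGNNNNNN, in which the 5 bases after the first pair with the last 5 (wobble pairs allowed) and the loop does not end in a guanine. Capitals mark the loop of 6 bases, and every window lies within 1 exon.
Fth1 5′ UTR: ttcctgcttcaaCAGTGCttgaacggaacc
Ftl1 5′ UTR: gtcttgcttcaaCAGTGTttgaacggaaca
Slc40a1 5′ UTR: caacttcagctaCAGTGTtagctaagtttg
Tfrc 3′ UTR, first match: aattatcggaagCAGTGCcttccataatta
Tfrc 3′ UTR, last match: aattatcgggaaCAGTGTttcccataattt
The Fth1 window is at chr19:9982732-9982761 on the plus strand, that of Ftl1 at chr7:45459778-45459807 on the minus strand and that of Slc40a1 at chr1:45925464-45925493 on the minus strand. Tfrc held 4 matches in its 3′ UTR, of which the first is at chr16:32631219-32631248 and the last at chr16:32631710-32631739, both on the plus strand. The transcripts used for the other 6 members held no match to this pattern, which occurred in 204 of 21877 coding genes (0.932%).

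The libraries held 13771630 to 23129576 counts with RD and 13935491 to 18545549 counts with HCD. Hepatocyte markers were abundant in every liver, with 101387 to 150125 CPM (counts scaled to a common library total with edgeR's TMM factors) summed over 10 genes. None of the 10 was called between diets in edgeR, while DESeq2 called 2 higher and 1 lower, against 6.97% of all genes. HCD replicate 1 stood apart from the other 5 libraries in genes of the sex chromosomes. It alone held Xist, with 5032 counts, and held 0 counts of 4 Y-linked genes whose summed counts were 1075 to 2666 in the other libraries. By these genes HCD replicate 1 came from a female and the other 5 libraries from males. Sex was thus not balanced between the diets, and its part in the values was not tested. Values without HCD replicate 1 are therefore given for the members where they differ in sign, in the call or by over 1.5 times. The labels do not say more of the replicates than that they are separate samples, so p-values measure the spread between these samples. In whole liver, fewer cells of a type and less RNA per cell cannot be told apart.

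Among the 10 members, the exporter gene Slc40a1, the importer gene Slc39a14 and the ferritin light chain gene Ftl1 differed most between diets. Slc40a1 and Ftl1 were higher and Slc39a14 was lower with HCD in edgeR's quasi-likelihood test at a Benjamini-Hochberg adjusted p under 0.05, a call made for 3.27% of all genes tested, 1.95% higher and 1.32% lower. Without HCD replicate 1 the same 3 members were called, against 2.61% of all genes. The other 7 members did not pass this threshold, and Hamp was among them. Trf and Fth1 passed in this fit without adjustment (5 of 10 members, against 20.9% of all genes). Trf also passed after adjustment in edgeR with no filter on low counts, and both passed the adjusted threshold in DESeq2, which called 4 members higher and 1 lower and 6.97% of all genes. HCD and RD differed by a median log2 fold change of 0.33 over the 10 members and of 0.0074 over all genes tested. In 6 members the values of the 2 diets did not overlap, against 27.6% of all genes tested. Of these, Trf, Slc40a1, Fth1 and Ftl1 were higher in every HCD liver (background 14.0%), and Tfrc and Slc39a14 were lower in every HCD liver (background 13.7%).

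**Figure D1:**
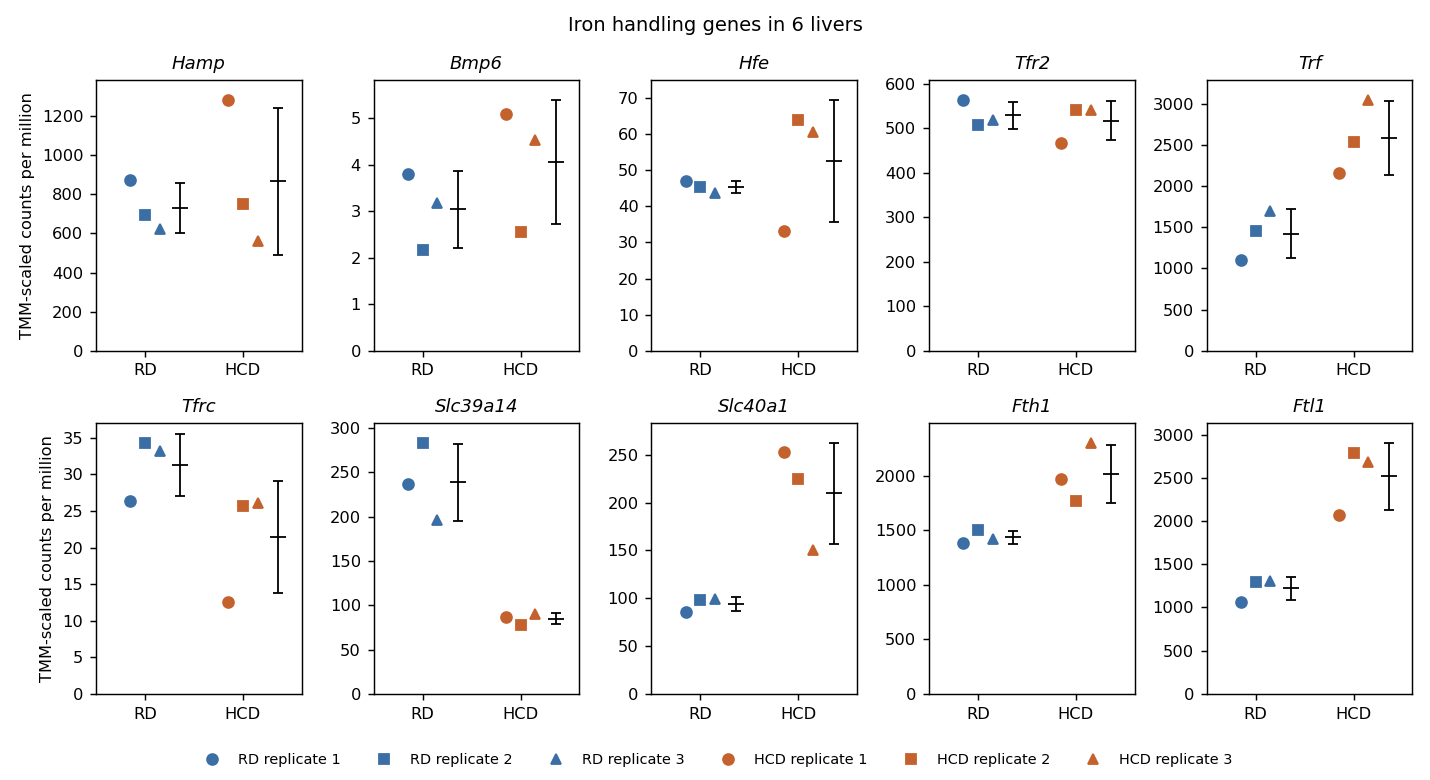
TMM-scaled counts (CPM) of the 10 genes in each liver, on linear axes that start at 0, with RD in blue and HCD in orange. Points are single livers and the black marks show the mean and SD (n = 3); the diets separate in Trf, Tfrc, Slc39a14, Slc40a1, Fth1 and Ftl1 and overlap in Hamp, Bmp6, Hfe and Tfr2.

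**Figure D2:**
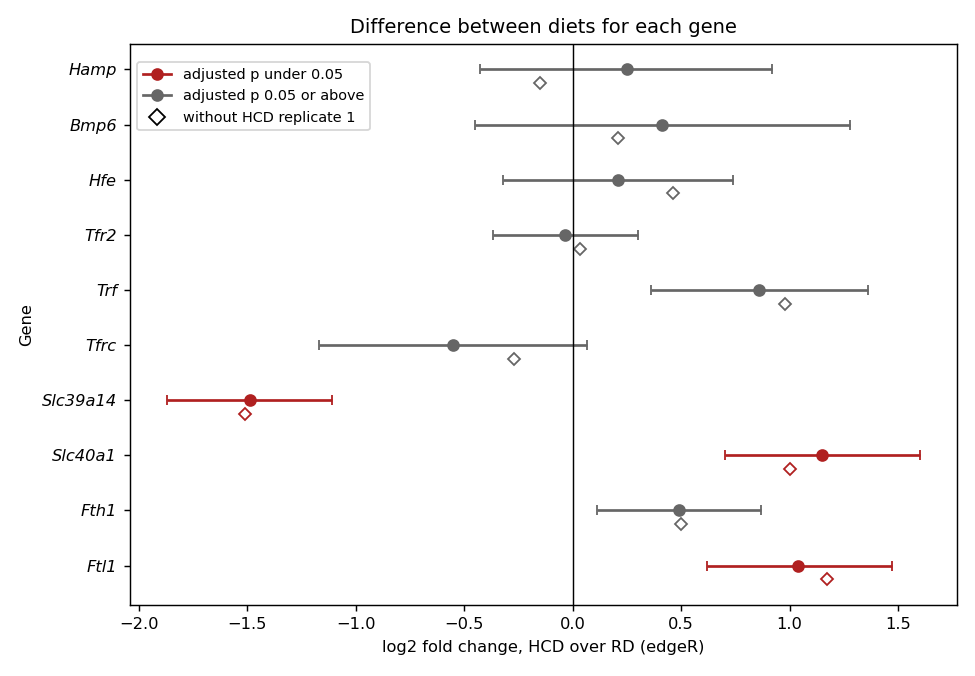
log2 fold change of HCD over RD for each gene from edgeR (circles, with 95% confidence intervals), with the value without HCD replicate 1 as open diamonds. Red marks the 3 genes with an adjusted p under 0.05; Slc39a14 lies at -1.49, Slc40a1 at 1.15, Ftl1 at 1.04, and the interval of Hamp runs from -0.43 to 0.92.

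Hamp (ENSMUSG00000050440, chromosome 7 from 30942368 to 30944032 on GRCm38, minus strand) was one of the most abundant transcripts of these livers, in place 38 of all genes by mean FPKM, the fragments per kilobase of gene and per sequenced total that the authors deposited. The 3 RD livers held 873, 693 and 623 CPM of Hamp, and the 3 HCD livers held 1284, 750 and 564 CPM. The highest and the lowest of the 6 values were both from HCD livers, so the diets overlapped. The means were 730 ± 129 CPM with RD and 866 ± 374 CPM with HCD (SD, n = 3). Hamp had a log2 fold change of 0.25 with a standard error of 0.30 and an adjusted p of 0.677 in edgeR (exact two-sided permutation test, p = 0.8). The 95% confidence interval of -0.43 to 0.92 leaves room for changes of 0.744-fold to 1.89-fold. The sign of the difference rested on HCD replicate 1, without which the log2 fold change of Hamp was -0.15 with an adjusted p of 0.718 in edgeR. Hamp, with a gene length of 410 bases, belongs to the shortest 10% of genes, whose median log2 fold change was 0.32, and removing the trend with gene length gave -0.068.

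Mice carry a second hepcidin gene, Hamp2, next to Hamp, whose peptide is not known to act on iron as hepcidin does. The RD livers held 2.07, 1.47 and 3.30 CPM of Hamp2, and the HCD livers held 254, 3.17 and 16 CPM. HCD replicate 1 thus stood far above the other 5 livers, and the diets overlapped. In that library Hamp2 reached 0.139 of the FPKM of Hamp, against 0.00149 to 0.0199 in the others. For Hamp2 it was 5.29 on the log2 scale, with a standard error of 1.43 and an adjusted p of 0.0876 in edgeR and 0.0095 in DESeq2, and 2.04 with an adjusted p of 0.132 without HCD replicate 1. Without HCD replicate 2 its adjusted p was 0.0387 in edgeR. HCD replicate 1 is the library with Xist, and the part of that in the Hamp2 level was not tested. The 2 transcripts are 93.0% identical over 417 aligned bases, so reads may be split between them. With both genes summed, the log2 fold change of Hamp was 0.39, with an adjusted p of 0.553 in edgeR.

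The promoters of both hepcidin genes are shown because the genes differed in level while their upstream sequences are close, with 227 of 253 alignment columns identical over the 250 bases before each start, gaps included (89.7%). The windows run from 150 to 31 bases before the start of transcription in RefSeq (GRCm38.p6), and capitals mark GGCGCC, the core of a BMP-responsive element, and TTCNNNGAA, the pattern of a STAT site, both of which read the same on either strand.
Hamp: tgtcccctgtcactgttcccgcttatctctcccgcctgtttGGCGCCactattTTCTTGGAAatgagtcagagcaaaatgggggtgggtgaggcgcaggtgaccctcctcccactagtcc
Hamp2: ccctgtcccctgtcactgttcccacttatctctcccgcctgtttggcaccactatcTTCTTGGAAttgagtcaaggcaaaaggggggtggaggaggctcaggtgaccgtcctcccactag
The Hamp window is at chr7:30944060-30944179 and that of Hamp2 at chr7:30924212-30924331, both on the minus strand. At the place of GGCGCC in Hamp, the aligned bases of Hamp2 carry the substitution G4A, counted from 1 at the first base of this motif. The motif GGCGCC occurred in 11.9% and TTCNNNGAA in 8.30% of the 32851 promoter windows of 300 bases in the RefSeq table. Of the 10 members, 7 had at least 1 promoter in that table, and besides Hamp only a promoter of Tfrc held GGCGCC.

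**Figure D3:**
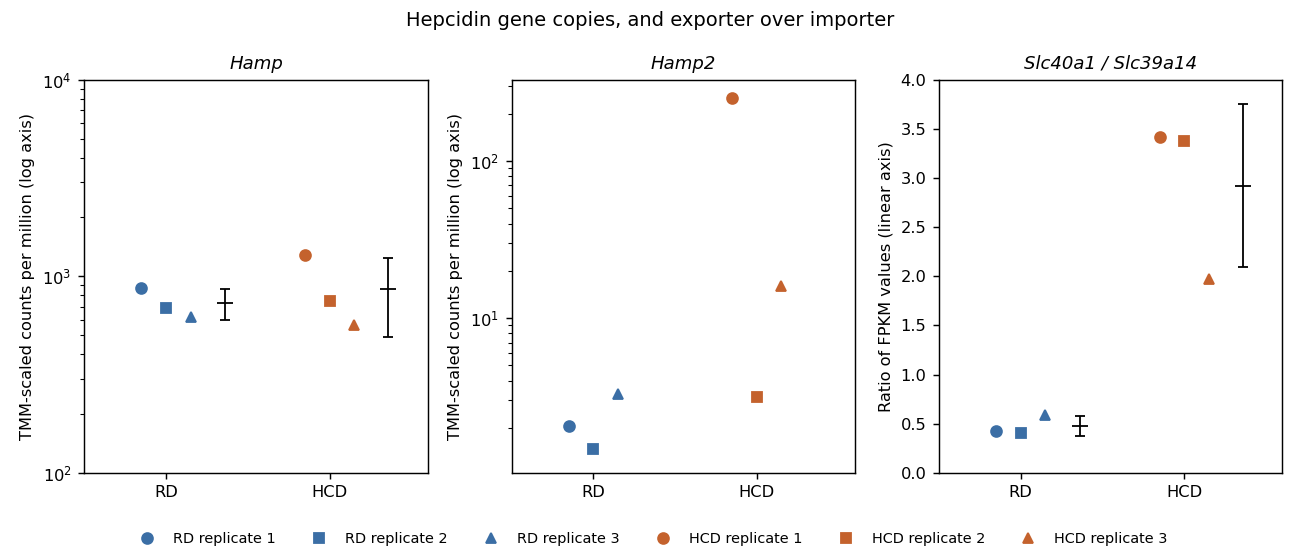
Hamp and Hamp2 in TMM-scaled CPM on log axes, and the ratio of Slc40a1 to Slc39a14 in FPKM on a linear axis, in each liver. The mean and SD (n = 3) are drawn for Hamp and the ratio; Hamp2 reached 254 CPM in HCD replicate 1, and the ratio was 0.407 to 0.591 with RD and 1.97 to 3.42 with HCD.

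Bmp6, Hfe and Tfr2 act before Hamp. Bmp6, the ligand through which sinusoidal endothelial cells report liver iron, was the lowest member, with 31 to 101 counts per library. The part of this low depth in its standard error was not tested. In RD livers it measured 3.80, 2.16 and 3.17 CPM, and in HCD livers it measured 5.10, 2.55 and 4.54 CPM. The diets overlapped, with a log2 fold change of 0.41, a standard error of 0.38 and an adjusted p of 0.573 in edgeR, and one of 0.21 with an adjusted p of 0.828 without HCD replicate 1. With any liver left out, the log2 fold change of Bmp6 ranged from 0.21 to 0.66, the latter without HCD replicate 2. Its last 224 bases overlap Txndc5 on the other strand. Hfe encodes an MHC class I-like protein that takes part in iron sensing and is mutated in hereditary haemochromatosis. It measured 47.0, 45.3 and 43.8 CPM with RD and 33.2, 64.0 and 60.5 CPM with HCD. The HCD livers lay on both sides of the narrow RD range, and HCD replicate 1 was the lowest of all. Parts of the Hfe transcript match transcripts of 124 other genes over 204 to 421 bases, so that some of its reads may be shared. Hfe had a log2 fold change of 0.21 with a standard error of 0.23 and an adjusted p of 0.648 in edgeR, and 0.46 with an adjusted p of 0.109 without HCD replicate 1. With any liver left out it ranged from 0.041, without HCD replicate 2, to that value.

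Tfr2, the second transferrin receptor, which senses transferrin-bound iron in hepatocytes, was the member whose estimate lay closest to no difference. It reached 564, 507 and 518 CPM in the RD livers and 467, 542 and 542 CPM in the HCD livers. The diets overlapped, and HCD replicate 1 was again the lowest liver. Tfr2 differed by a log2 fold change of -0.035 with a 95% confidence interval of -0.37 to 0.30 and an adjusted p of 0.915 in edgeR. Its sign turned without HCD replicate 1, to 0.034, and without RD replicate 1, to 0.013.

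Trf encodes transferrin, the plasma protein that carries iron, and was in place 85 of all genes by mean FPKM. With RD the livers held 1107, 1453 and 1698 CPM of Trf, and the HCD livers held 2156, 2537 and 3048 CPM. Every HCD liver lay above every RD liver. The means were 1419 ± 297 CPM and 2580 ± 448 CPM (SD, n = 3), a log2 fold change of 0.86 with a standard error of 0.22. Its adjusted p was 0.0726 in edgeR, 5.8e-04 in DESeq2, and in edgeR 0.0286 with no filter on low counts and 0.053 without HCD replicate 1. The annotation holds a read-through gene, Gm20425, over Trf on the same strand, and the tables gave it 2 counts in 1 library and 0 in the others.

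Tfrc, the receptor that takes up iron-loaded transferrin in most cells and the member with IREs in its 3′ UTR, had the opposite direction. Its level was 26.4, 34.3 and 33.2 CPM in the RD livers and 12.6, 25.7 and 26.1 CPM in the HCD livers. The diets did not overlap on this scale, but HCD replicates 2 and 3 lay just under RD replicate 1, and in FPKM the lowest RD liver (6.22) was below the highest HCD liver (6.33). The log2 fold change of Tfrc was -0.55 with a standard error of 0.27 and an adjusted p of 0.288 in edgeR. Without HCD replicate 1, the lowest liver, it was -0.27 with an adjusted p of 0.401.

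Slc39a14 encodes ZIP14, a transporter that brings zinc, manganese and iron not bound to transferrin into hepatocytes and that is known to be induced by interleukin-6. It was the member with the lowest adjusted p. The RD livers held 237, 283 and 196 CPM of Slc39a14, and the HCD livers held 86.8, 77.9 and 90.3 CPM. The 3 HCD livers were close to each other, and each lay far below the lowest RD liver. The means were 239 ± 43.7 CPM and 85.0 ± 6.39 CPM (SD, n = 3). The log2 fold change of Slc39a14 was -1.49 with a standard error of 0.17 and an adjusted p of 0.00608 in edgeR, so that the HCD level was 0.356 of the RD level (95% confidence interval 0.273 to 0.463). It stayed under the threshold in all 20 alternatives tried, with adjusted p of 0.0476 or less, and was -1.51 without HCD replicate 1.

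Slc40a1 encodes ferroportin, which moves iron out of cells and is abundant in Kupffer cells, the macrophages of the liver, as well as present in hepatocytes. The RD livers held 85.7, 98.4 and 98.8 CPM of Slc40a1, and the HCD livers held 253, 225 and 151 CPM. Every HCD liver lay above every RD liver, and the HCD livers were spread more widely. The means were 94.3 ± 7.42 CPM and 210 ± 52.4 CPM (SD, n = 3). Slc40a1 was 2.22-fold higher with HCD (95% confidence interval 1.63 to 3.04), a log2 fold change of 1.15 with a standard error of 0.20 and an adjusted p of 0.0257 in edgeR. It was called in 15 of 20 alternatives. The 5 losses included library sizes alone (adjusted p of 0.0526 in edgeR) and leaving out RD replicate 1, 2 or 3 (0.124, 0.113 and 0.0714), while the log2 fold change stayed between 1.00 and 1.33 with any liver left out.

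Of the markers of Kupffer cells, 10 of 10 had log2 fold changes above 0 (9 without HCD replicate 1). Their median was 0.84, and 0.62 without HCD replicate 1, against 0.0074 over all genes tested with all livers. None was called in edgeR, and DESeq2 called 4 of the 10 higher, against 6.97% of all genes called in either direction. Estimates above 0 were also usual for markers of stellate cells (10 of 10, median 0.41), leukocytes (5 of 5, median 0.74) and cholangiocytes (4 of 5, median 0.60), with none called in edgeR. Without HCD replicate 1 these counts were 9, 3 and 5. For sinusoidal endothelial cells 7 of 10 lay above 0, with a median of 0.24 that turned to -0.026 without HCD replicate 1. The summed level of the Kupffer cell markers was 168, 211 and 277 CPM in the RD livers and 506, 448 and 230 CPM in the HCD livers. In HCD replicate 3 this sum lay within the RD range. Slc40a1 was at 151 CPM in that liver, the lowest of the HCD livers but above the highest RD liver, at 98.8 CPM. The part of these cells in the Slc40a1 values was not tested.

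Ferritin stores iron in a shell of heavy and light chains, encoded by Fth1 and Ftl1, both with an IRE in the 5′ UTR. For Ftl1, the RD livers held 1061, 1298 and 1301 CPM and the HCD livers held 2074, 2788 and 2688 CPM. Every HCD liver lay far above the RD range. The means were 1220 ± 138 CPM and 2517 ± 386 CPM (SD, n = 3). Ftl1 was 2.06-fold higher with HCD (95% confidence interval 1.53 to 2.78), a log2 fold change of 1.04 with a standard error of 0.19 and an adjusted p of 0.0283 in edgeR. It was called in 12 of 21 alternatives, and its log2 fold change stayed between 0.95 and 1.17 with any liver left out. The call was lost without each of RD replicates 1 to 3 (adjusted p of 0.144, 0.119 and 0.0759 in edgeR) and without HCD replicate 2 or 3 (0.053 and 0.0746). Ftl1 also belongs to the shortest 10% of genes, and with the length trend removed its log2 fold change was 0.87 and its adjusted p 0.0546.

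Reads of Ftl1 can also fall on near-identical copies. Ftl1-ps1, 99.6% identical over 910 bases, held 21.6, 22.6 and 22.3 CPM with RD and 39.0, 40.9 and 42.8 CPM with HCD, and its log2 fold change of 0.88 had an adjusted p of 0.0130 in edgeR, and of 0.0907 and 0.0696 without RD replicates 1 and 2. Gm15590, 99.1% identical over 552 bases, held 0.955 to 1.97 CPM with RD and 3.73 to 5.72 CPM with HCD. Ftl2-ps held 0.174 to 0.279 CPM with RD and 0.708 to 1.45 CPM with HCD. These copies held few counts beside Ftl1, and the log2 fold change of Ftl1 was again 1.04 with the counts of Ftl1-ps1 and Ftl2-ps added.

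Fth1 was the member with the highest mean FPKM, in place 36 of all genes. It measured 1387, 1499 and 1420 CPM in the RD livers and 1974, 1772 and 2301 CPM in the HCD livers. Every HCD liver again lay above every RD liver, by a smaller step than for Ftl1. The means were 1436 ± 57.4 CPM and 2016 ± 267 CPM (SD, n = 3), and the log2 fold change of 0.49 had a standard error of 0.17 and an adjusted p of 0.149 in edgeR and 0.0381 in DESeq2. The FPKM ratio of Ftl1 to Fth1 was 0.494, 0.560 and 0.592 with RD and 0.679, 1.02 and 0.755 with HCD. This ratio did not overlap between diets (exact two-sided permutation test, p = 0.1, the smallest that 3 livers against 3 allow).

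Some globin transcripts were higher with HCD as well. Of 5 tested markers of red cells and their precursors, the globin genes Hba-a1 and Hbb-bs were higher with HCD, with log2 fold changes of 2.41 and 2.28 and adjusted p of 0.0217 and 0.0223 in edgeR, 2 of 5 against 1.95% of all genes called higher. The globin gene Hbb-bt had an adjusted p of 0.0552 in edgeR, and of 0.021 without HCD replicate 1, while Hba-a2 overlapped between diets with an adjusted p of 0.299. The calls of Hba-a1 and Hbb-bs were lost without RD replicate 1 or 2 or HCD replicate 3, with adjusted p of 0.0696 to 0.106. Alas2, the erythroid enzyme of haem synthesis, had a log2 fold change of -0.70 with an adjusted p of 0.612 in edgeR (-0.17 without HCD replicate 1), at 105, 105 and 154 CPM with RD and 8.24, 97.0 and 119 CPM with HCD. The RD livers held 27.3, 15.3 and 36.7 CPM of Hba-a1 and the HCD livers 77.1, 176 and 170 CPM, so that every HCD liver lay above every RD liver, as for Ftl1 and Fth1. The summed level of the 9 listed markers in the tables was 163, 138 and 239 CPM with RD and 177, 468 and 453 CPM with HCD, with the low Alas2 of HCD replicate 1 included. Slc4a1, the gene of a red cell membrane protein, was at 0.324 CPM or less in every liver. The part of red cell RNA in the ferritin values was not tested.

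Within each diet the members spanned a wide range of FPKM, from the ferritins and Hamp at the top to Bmp6. In RD livers the order by mean FPKM was Hamp (2598 ± 439), Fth1 (2422 ± 80.6), Ftl1 (1331 ± 159), Trf (626 ± 140), Tfr2 (178 ± 10.8), Slc39a14 (33.0 ± 5.38), Hfe (18.6 ± 0.507), Slc40a1 (15.3 ± 1.31), Tfrc (7.40 ± 1.02) and Bmp6 (1.14 ± 0.317; SD, n = 3). Only the ranges of the neighbours Hamp and Fth1 overlapped in this order. In HCD livers Fth1 (3460 ± 512), Hamp (3144 ± 1399) and Ftl1 (2784 ± 389) came first with overlapping ranges, followed by Trf (1154 ± 203) and Tfr2 (177 ± 13.0). Below these, Slc40a1 (34.6 ± 8.67) and Hfe (21.8 ± 6.74) overlapped and stood above Slc39a14 (12 ± 1.14), so the exporter and the importer changed places. The ratio of Slc40a1 to Slc39a14 was 0.424, 0.407 and 0.591 in the RD livers and 3.42, 3.38 and 1.97 in the HCD livers. This ratio restates the differences of the 2 genes (exact two-sided permutation test, p = 0.1, the smallest that 3 livers against 3 allow). Every RD liver thus had more Slc39a14 than Slc40a1 per length, and every HCD liver more Slc40a1.

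Other genes of the iron pathway were read from 7 lists and the Hamp copy, 82 genes in all, of which 76 were tested. Of these, 1 was higher and 3 were lower with HCD in edgeR (5.26%, against 3.27% of all genes), and their median log2 fold change was 0.0068. Of the 76 genes, 38 lay above 0 and 38 below. The 4 called genes were Stat3, Il6st, Steap4 and Skp1a.

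**Figure D4:**
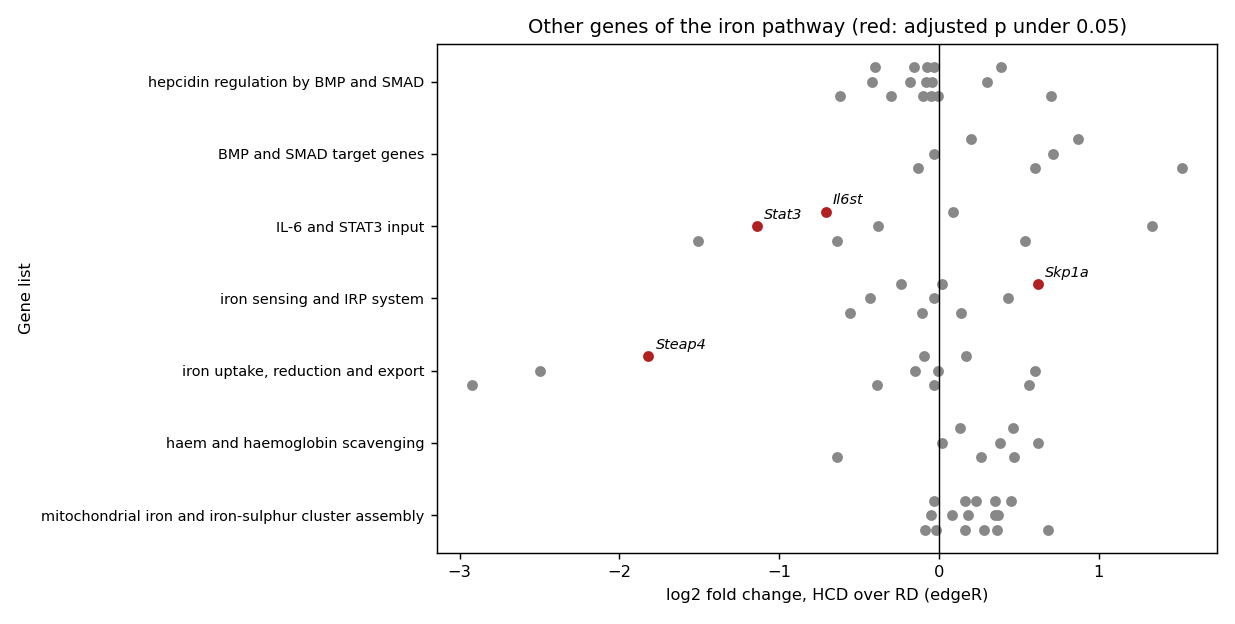
log2 fold change of HCD over RD for each tested gene of the 7 pathway lists, 1 row per list, with the points of a row spread vertically to keep them apart. Red points with names have an adjusted p under 0.05 in edgeR: Stat3 (-1.14), Il6st (-0.71), Steap4 (-1.82) and Skp1a (0.62).

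The list of the interleukin-6 input to Hamp held 2 of the 4 called genes. Both were lower with HCD, 2 of 8 tested against 1.32% of all genes called lower. Of the 8 tested genes, 3 lay above 0 and 5 below. Stat3, the factor that carries this signal to the nucleus, held 161, 195 and 203 CPM in the RD livers and 90.1, 80.1 and 84.1 CPM in the HCD livers. Its values did not overlap between diets, and its log2 fold change of -1.14 had a standard error of 0.14 and an adjusted p of 0.00948 in edgeR. It was called in 19 of 20 alternatives, and without RD replicate 2 the adjusted p was 0.0516. Il6st, the signalling subunit of the interleukin-6 receptor also known as gp130, held 171, 201 and 183 CPM with RD and 108, 132 and 99.2 CPM with HCD. Its log2 fold change of -0.71 had an adjusted p of 0.0454 in edgeR and 0.0979 with the length trend removed. Without RD replicates 1, 2 and 3 in turn it was 0.139, 0.185 and 0.0981, and without HCD replicates 1 and 3 it was 0.0804 and 0.112. Socs3, a STAT3 target that damps the pathway, held 14.2, 15.4 and 22.5 CPM with RD and 11.4, 2.96 and 3.65 CPM with HCD. Its log2 fold change of -1.51 had an adjusted p of 0.125 in edgeR and 0.00565 in DESeq2, and of 0.0111 in edgeR at -2.40 without HCD replicate 1. Il22ra1, a subunit of the interleukin-22 receptor, had the opposite sign and diets that did not overlap, at 1.95 to 2.79 CPM with RD and 4.46 to 7.17 CPM with HCD, with a log2 fold change of 1.33 and an adjusted p of 0.0618 in edgeR and 0.0172 in DESeq2. The list of acute phase proteins was mixed, with 11 of 20 tested genes above 0 and 9 below. In edgeR 2 were called higher (Saa3 and Orm3), against 1.95% of all genes called higher, and none lower. Both calls were lost without RD replicate 2 (adjusted p of 0.124 and 0.10 in edgeR), RD replicate 3 (0.0656 and 0.0508) or HCD replicate 3 (0.0707 and 0.0699). The call of Saa3 was also lost without RD replicate 1 (0.129). Summed levels of the list were 35157 to 38421 CPM with RD and 23790 to 43254 CPM with HCD. DESeq2 called 2 higher and 2 lower, against 6.97% of all genes in either direction. The fibrinogen genes Fga and Fgb did not overlap between diets, with log2 fold changes of -0.77 and -0.69 and adjusted p of 0.0715 and 0.0750 in edgeR and of 1.9e-04 and 2.4e-04 in DESeq2.

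Genes of the BMP and SMAD input to Hamp held no called gene among 16 tested, with a median log2 fold change of -0.078. Fgl1, a hepatocyte protein that binds BMP6 and lowers hepcidin, measured 447 to 476 CPM with RD and 225 to 407 CPM with HCD, with a log2 fold change of -0.62 and an adjusted p of 0.16 in edgeR and 0.0375 in DESeq2. The ligand gene Bmp2 had a log2 fold change of 0.70 with an adjusted p of 0.184 in edgeR, and the receptor gene Acvr1 one of -0.42 with an adjusted p of 0.338 (-0.60 to -0.19 with any liver left out). None of 7 SMAD target genes was called in edgeR, with a median log2 fold change of 0.60, and of 0.35 without HCD replicate 1. Among them Atoh8 did not overlap between diets, at 14.4 to 33.1 CPM with RD and 35.0 to 52.0 CPM with HCD (adjusted p of 0.138 in edgeR and 0.0323 in DESeq2). Smad6, an inhibitory SMAD, had a log2 fold change of 0.71 with an adjusted p of 0.176 in edgeR, and of 0.44 without HCD replicate 1. Id1 had one of 1.52 in all livers and of 0.32 without HCD replicate 1, where it was highest at 20.7 CPM.

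Iron uptake, reduction and export, apart from the members, held 1 called gene among 11 tested, lower with HCD, against 1.32% of all genes called lower. Steap4, a metalloreductase that reduces iron and copper, held 339, 290 and 212 CPM in the RD livers and 71.6, 71.1 and 95.6 CPM in the HCD livers. All HCD livers lay far below the RD range, with a log2 fold change of -1.82, a standard error of 0.21 and an adjusted p of 0.00699 in edgeR, and Steap4 was called in all 20 alternatives. Scara5, a ferritin receptor, held 22.7 to 28.0 CPM with RD and 0, 8.34 and 1.86 CPM with HCD, with a log2 fold change of -2.92 and an adjusted p of 0.132 in edgeR and 0.366 in DESeq2. Without HCD replicate 1, the liver with 0 counts, the log2 fold change of Scara5 was -2.28 with an adjusted p of 0.0559 in edgeR. Without HCD replicate 2 it was -4.98 with an adjusted p of 0.0396 in edgeR. Steap2, a related reductase, had a log2 fold change of 0.60 in all livers and of -0.055 without HCD replicate 1, with adjusted p of 0.506 and 0.958 in edgeR.

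In the list of iron sensing, 1 of 9 tested genes was called, higher with HCD, against 1.95% of all genes called higher. Skp1a, a subunit of the ubiquitin ligase that degrades IRP2, held 136 to 148 CPM with RD and 200 to 236 CPM with HCD, with a log2 fold change of 0.62 and an adjusted p of 0.0449 in edgeR. Skp1a serves many other ubiquitin ligases, and its call was lost with the length trend removed (adjusted p of 0.0906 in edgeR) and when any liver but HCD replicate 1 was left out (0.0709 to 0.195). Ncoa4, the receptor that takes ferritin to the lysosome, measured 60.3 to 67.9 CPM with RD and 45.1 to 50.5 CPM with HCD. Its diets did not overlap, and its log2 fold change of -0.43 had an adjusted p of 0.0952 in edgeR. Herc2, a ubiquitin ligase for NCOA4 and FBXL5, had a log2 fold change of -0.56 with an adjusted p of 0.148 in edgeR.

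No gene was called among 8 tested genes of haem and haemoglobin scavenging, with a median log2 fold change of 0.32. Hp, the haptoglobin gene, ranged from 3747 to 5279 CPM with RD and from 4077 to 8693 CPM with HCD. Hmox2, a haem oxygenase, had a log2 fold change of 0.46 with an adjusted p of 0.108 in edgeR, and the inducible Hmox1 one of 0.38 with an adjusted p of 0.463 (0.23 to 0.72 with any liver left out). None of 16 genes of mitochondrial iron and iron-sulphur cluster assembly was called, with a median log2 fold change of 0.20. Lyrm4, a subunit of the cluster assembly complex, and Slc25a28, the mitochondrial iron importer mitoferrin 2, had log2 fold changes of 0.37 and 0.36. Their adjusted p was 0.470 and 0.292 in edgeR. With any liver left out, the log2 fold change of Lyrm4 ranged from 0.19, without HCD replicate 1, to 0.54. That of Slc25a28 ranged from 0.22, without HCD replicate 3, to 0.46.

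The genes whose pattern over the 6 livers was most like that of Hamp were Cenpv, Jun, Rps21, Atr and Gbp7. Their centred log2 CPM differed from that of Hamp by a root mean square of 0.0983, 0.107, 0.132, 0.136 and 0.140 among the 9116 genes that averaged 5 CPM or more. All 5 were highest in HCD replicate 1, as was Hamp, and lowest in HCD replicate 3. Over 6 livers of only 2 diets such a likeness is a description of these libraries.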

How the data were processed

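Liver RNA of 3 RD and 3 HCD mice was compared in all 6 libraries. The authors deposited raw read counts, which are whole numbers, and FPKM, scaled by gene length and library total. A log2 fold change, a p-value and an adjusted p of the authors' own comparison were also deposited and were not used. The submitters' processing notes name STAR, HTSeq, DESeq2, edgeR and GRCm39, without versions or roles, and the strand setting was not stated. Positions come from GENCODE M21 on GRCm38, which holds 20653 of the 20673 gene identifiers.

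Counts were analysed with edgeR 4.0.16 in R 4.3.3. After filterByExpr by diet and TMM scaling (factors 0.886 to 1.07), glmQLFit and glmQLFTest compared the diets with no covariate, and p-values were adjusted by Benjamini-Hochberg over 13105 genes. The test was also run on counts simulated from the fitted means and dispersions, with 200 changed genes. No simulated library was set apart as HCD replicate 1 was, so this run cannot show how the test behaves with such a library. Alternatives used DESeq2 1.42.0, limma 3.58.1 on log2 of FPKM plus 1 or 0.1, other scalings and filters, loess offsets for gene length and GC content, a replicate block, summed copies and each liver left out. Libraries of the same diet differed by more than sampling noise.

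The members and lists were chosen with earlier results of these data known. Named genes were the members, their copies, the called genes of each list (where fewer than 3, up to 3 with the largest difference and a mean of at least 5 CPM) and the 5 genes nearest to Hamp. Genes outside this rule, such as globin and acute phase genes and Il22ra1, were chosen after their values were seen. Some genes that the rule names are not reported here.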

Additional observations from a re-analysis of the deposited data

How the results depend on the processing

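Slc39a14 stayed lower in all 20 alternatives tried, so 1 member was called lower in each. The number of members called higher was 2 in edgeR, 4 in DESeq2 (Trf and Fth1 added) and 4 at an unadjusted p under 0.05, 3 without a filter (Trf added at an adjusted p of 0.0286 in edgeR), and 1 with library sizes alone, in limma on log2 FPKM at both pseudocounts and with the length trend removed. It was 0 to 2 with any liver left out, and 0 without RD replicate 1, 2 or 3. The log2 fold change of Hamp turned to -0.068 with the length trend removed, to -0.15 without HCD replicate 1 and to -0.55 with both, an alternative added after seeing the data. The log2 fold change of Hamp was -0.15 to 0.47 with any liver left out. That of Tfr2 turned to 0.0041 with the length trend removed, 0.013 without RD replicate 1, 0.034 without HCD replicate 1 and 0.090 when the length trend was also removed (-0.076 to 0.034 with any liver left out). The cause of these turns was not tested.

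Pathway genes called higher numbered 1 in edgeR, 4 in DESeq2, 2 in limma at both pseudocounts, 11 unadjusted, 0 with library sizes alone, 0 with the length trend removed, also without HCD replicate 1, and 0 to 1 with any liver left out. Those called lower numbered 3 in edgeR, 6 in DESeq2, 6 without a filter, 12 unadjusted and 1 to 5 with any liver left out. Over all genes, 255 were higher and 173 lower in edgeR. These became 552 and 440 in DESeq2, 138 and 113 with the length trend removed, 100 and 79 when HCD replicate 1 was also left out, and 1453 and 1286 unadjusted. Library sizes alone gave 158 higher, no filter 285 lower and limma at a pseudocount of 0.1 gave 115 lower. With any liver left out, 17 to 229 were higher and 22 to 158 lower.

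Same-numbered libraries did not deviate together (correlations -0.0761, 0.0879 and -0.0413), not every library correlated best with its own number, and no label ties the numbers to a litter or day. A replicate block called 1 member higher (Ftl1, adjusted p of 0.0489 in edgeR, with Slc40a1 at 0.0657, the remaining lost call of that gene), 0 pathway genes higher, and 71 genes higher and 65 lower in all, and gave 0.054 for both Hba-a1 and Hbb-bs. The block with the length trend removed also called 1 member higher, but this was Slc40a1 (adjusted p of 0.0482 in edgeR), with Ftl1 at 0.0794. It called 0 pathway genes higher, 47 genes higher and 49 lower, with log2 fold changes of -0.17 for Hamp and 0.00069 for Tfr2. Copies of Fth1 could not be summed, since none was in the tables used here. Counts were low for Bmp6, at 31 to 101 per library, and for Hamp2, at 21 to 197 outside HCD replicate 1. The part of depth in their spread was not tested.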
